A study of Mus musculus with 1 sample.

Results

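The Hedgehog genes of the fetal mouse testis described here were the ligand *Dhh*, its receptors and co-receptors *Ptch1*, *Gas1* and *Cdon*, the cell-surface inhibitor *Hhip*, the transducer *Smo*, and the transcription factors *Gli1*, *Gli2* and *Gli3*. They were chosen by name, with earlier results of these data known, and all 9 were found among the 22631 genes of the count matrix. A list of 33 further pathway genes was read beside them, which made 42 in all. Single-cell RNA sequencing had been performed on the testes of 12 controls, pooled into 1 library. The labels call these animals WT and give embryonic day (E) 14.5. The methods of the study call them *Nr5a1* L2/L2 fetuses without a Cre transgene, that is, carriers of a floxed but intact *Nr5a1*, and also name the day before. With 1 library there was no replicate of any class of cells, and no test was made: every interval below is an exact 95% interval of counting error only.

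Hedgehog proteins are secreted signals. In a cell that receives none, the receptor PTCH1 holds the membrane protein SMO inactive, and GLI2 and GLI3 are kept from activating genes or are cut to repressors. When a ligand binds PTCH1, SMO is released and acts through the primary cilium, and GLI factors switch on targets that include *Gli1*, *Ptch1* and *Hhip* themselves, so that the levels of these 3 genes are widely read as a sign of reception. In the fetal testis, desert hedgehog, encoded by *Dhh*, is made by Sertoli cells inside the cords and is needed for fetal Leydig cells and peritubular myoid cells outside them.

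After filtering, 3817 cells with 54582408 UMIs (molecules counted once each) remained, with a median of 12067 UMIs per cell. They formed 16 clusters, found without the 42 pathway genes, and each cluster was named from a list of marker genes that holds none of them. The largest classes were 1353 interstitial-like cells in 3 clusters, 917 Sertoli-like cells in 2 clusters, 521 peritubular myoid-like cells, 310 Leydig-like cells in 2 clusters and 252 germ-like cells. Clusters of 1 class are told apart below by their leading gene: *Colec11*, *Ntng1* and *H2ac8* for the interstitial-like ones, *Nppc* and *Clps* for the Leydig-like ones. In the *H2ac8* cluster of 215 cells, led by histone genes, 100% of cells were assigned to S or G2/M phase. A cluster of 63 cells passed as Sertoli-like with a median of 3181 UMIs, and one of 89 cells, with *Emcn* and *Gdf10* among its leading genes and with 8 of 8 interstitial-like markers detected, was left unnamed because its leading genes held more markers of another class. Lists for Schwann-like and mesonephric epithelium-like cells named no cluster. Levels are given as UMIs of the gene per 1000000 UMIs of the class or cluster (CPM). The interstitial-like markers, *Pdgfra* and *Nr2f2* among them, were not particular to that class: they summed to 4295 CPM in the *Colec11* cluster and to 5023 CPM in peritubular myoid-like cells, which were told apart by their own list, *Acta2* and *Tagln* among it (1560 against 5167 CPM).

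The genes lie on 7 chromosomes of the mouse genome (build GRCm38). *Dhh* lies on chromosome 15, at 98891152 to 98898540 on the minus strand, and shares 546 exonic bases with *Rhebl1* on the same strand, where reads cannot be given to one gene. *Ptch1* lies on chromosome 13, at 63508328 to 63573598 on the minus strand, as does *Gas1*, at 60174405 to 60177365. *Gli3* lies on the same chromosome, at 15463235 to 15730026 on the plus strand. *Hhip* lies on chromosome 8, at 79965851 to 80058006 on the minus strand, and *Gli1* on chromosome 10, at 127329882 to 127341974 on the minus strand. None of the 8 other members shared exonic bases with a gene of its own strand.

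The sequences just upstream of *Dhh*, *Ptch1* and *Hhip* are shown because these 3 genes separate the sending cells from the responding cells. Each is the 250 bases before the RefSeq start of the gene, 5′ to 3′ on its own strand in build GRCm38.p6, with the GC box GGGGCGGGG, read on either strand, in capitals. The windows are chr15:98898541-98898790 for *Dhh*, chr13:63565736-63565985 for *Ptch1* and chr8:80058009-80058258 for *Hhip*, all on the minus strand. None of them overlaps an annotated exon of its gene, although that of *Ptch1* lies inside the annotated gene, behind a more distant start.
Dhh: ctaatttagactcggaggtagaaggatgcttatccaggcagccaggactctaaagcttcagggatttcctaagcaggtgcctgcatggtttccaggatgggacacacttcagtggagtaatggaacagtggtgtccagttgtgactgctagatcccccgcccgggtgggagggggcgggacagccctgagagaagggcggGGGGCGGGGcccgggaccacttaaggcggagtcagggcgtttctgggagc
Ptch1: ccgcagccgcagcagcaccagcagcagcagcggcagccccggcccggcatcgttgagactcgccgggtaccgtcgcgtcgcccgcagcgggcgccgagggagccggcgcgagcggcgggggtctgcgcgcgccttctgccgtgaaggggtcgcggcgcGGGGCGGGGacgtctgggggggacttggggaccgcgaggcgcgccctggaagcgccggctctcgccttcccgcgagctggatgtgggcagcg
Hhip: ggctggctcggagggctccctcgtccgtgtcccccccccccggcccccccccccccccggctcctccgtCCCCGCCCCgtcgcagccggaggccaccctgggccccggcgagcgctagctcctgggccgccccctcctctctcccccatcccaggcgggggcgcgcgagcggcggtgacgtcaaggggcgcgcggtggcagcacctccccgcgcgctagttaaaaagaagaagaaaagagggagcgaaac

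G and C made up 59.6% of the *Dhh* window, 78.4% of the *Ptch1* window and 76% of the *Hhip* window, against a median of 52.4% over the 32851 windows of this kind. The GC box was found in the windows of 4 of the 8 members with an entry, *Dhh*, *Ptch1*, *Hhip* and *Gli3*, and in 10.4% of all windows. *Gli1* had no entry. The GLI-binding motif GACCACCCA, searched on both strands, was in 0.225% of all windows and in none of the 37 windows of the 33 pathway genes with an entry. The letters AACAAT of the SOX factors (9.42% of all windows) and AAGGTCA of NR5A1 (4.08%) were in none of the member windows either. These matches describe the letters of the windows and nothing about the binding of a factor.

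*Dhh* was the gene of the Sertoli-like cells. Of its 4146 UMIs in all cells, 96.8% lay in Sertoli-like cells and 1.11% in rete testis-like cells. Its level was 307 CPM in Sertoli-like cells (95% interval 298 to 317, 917 cells) and 1.72 CPM in interstitial-like cells (1.09 to 2.58, 1353 cells), a difference of 179-fold (119 to 282). Sertoli-like cells stood above every class outside the cords.

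Within the Sertoli-like class, *Dhh* was at 310 CPM in the main cluster (301 to 320) and at 141 CPM in the shallow cluster (98.4 to 196). The shallow cluster was mixed in its markers: Sertoli-like ones summed to 8868 CPM, erythroid-like ones to 10123 CPM and Leydig-like ones to 803 CPM. In the main cluster the last 2 sums were 1421 and 119 CPM. The erythroid-like sum varied over the other clusters too. Outside the erythroid-like one it ran from 137 CPM in endothelial-like to 19173 CPM in immune-like cells, with 10484 CPM in the *Clps* Leydig-like cluster. The main cluster also led the rete testis-like cells, which line the channels that drain the cords, where *Dhh* was at 109 CPM (79.6 to 145, 30 cells). The difference between the main Sertoli-like cluster and the rete testis-like cells was 2.85-fold (2.14 to 3.91). The shallow Sertoli-like cluster and the rete testis-like cells had overlapping intervals. Of the 30 rete testis-like cells, 20 held a *Dhh* UMI, and the cell with the most held 7. The 10 Sertoli-like markers summed to 2425 CPM there and to 10123 CPM in the main Sertoli-like cluster, and *Amh*, the hormone of Sertoli cells, was at 184 CPM against 1993 CPM. Thus *Dhh* stood at 59.0 UMIs for every 100 UMIs of *Amh* in rete testis-like cells and at 15.6 in the main Sertoli-like cluster.

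Elsewhere *Dhh* was low. By class it ranged from 0.879 CPM in peritubular myoid-like cells to 8.65 CPM in the erythroid-like cells, from 5 UMIs in 35 cells, and the intervals of all neighbours in that order overlapped. In the 34 immune-like and 22 endothelial-like cells no *Dhh* UMI was seen, with intervals that reach up to 6.96 and 12.96 CPM. In interstitial-like, peritubular myoid-like and germ-like cells, *Dhh* stood at 18.7, 11.1 and 20 UMIs for every 100 of *Amh*, near the value in the main Sertoli-like cluster. These values came from 23, 6 and 20 *Dhh* UMIs and 123, 54 and 100 *Amh* UMIs, and 7 of the germ-like *Dhh* UMIs lay in 1 cell. In Leydig-like cells *Dhh* stood at 45.7, from 16 and 35 UMIs, and 7 of these *Dhh* UMIs lay in 1 cell as well. In coelomic epithelium-like cells it stood at 81.8, from 9 and 11 UMIs, with at most 2 *Dhh* UMIs in a cell.

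*Dhh* was spread over the Sertoli-like cells rather than held by a few. A UMI was found in 91.5% of them (839 of 917 cells) as read. With each cell thinned to 5000 UMIs, which left out 67 shallower Sertoli-like cells, the share was 76.2% (73.2 to 79.1, 850 cells). The share in germ-like cells, taken as a background share, was 1.61% (0.441 to 4.08, 248 cells, 4 left out) after thinning and 4.37% before. Median depths were 14098 UMIs in Sertoli-like and 36104 UMIs in germ-like cells. Whether the germ-like *Dhh* UMIs are background was not tested. Thinned Sertoli-like cells held 1.53 *Dhh* UMIs on average, with a variance of 1.19 times the mean and at most 8. By cell-cycle phase, *Dhh* was at 327 CPM in G1 (312 to 341), 279 CPM in S (261 to 298) and 299 CPM in G2/M (282 to 318). The level in S lay below that in G1, with intervals that did not overlap, and both phases lay above every class outside the cords.

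**Figure D1:**
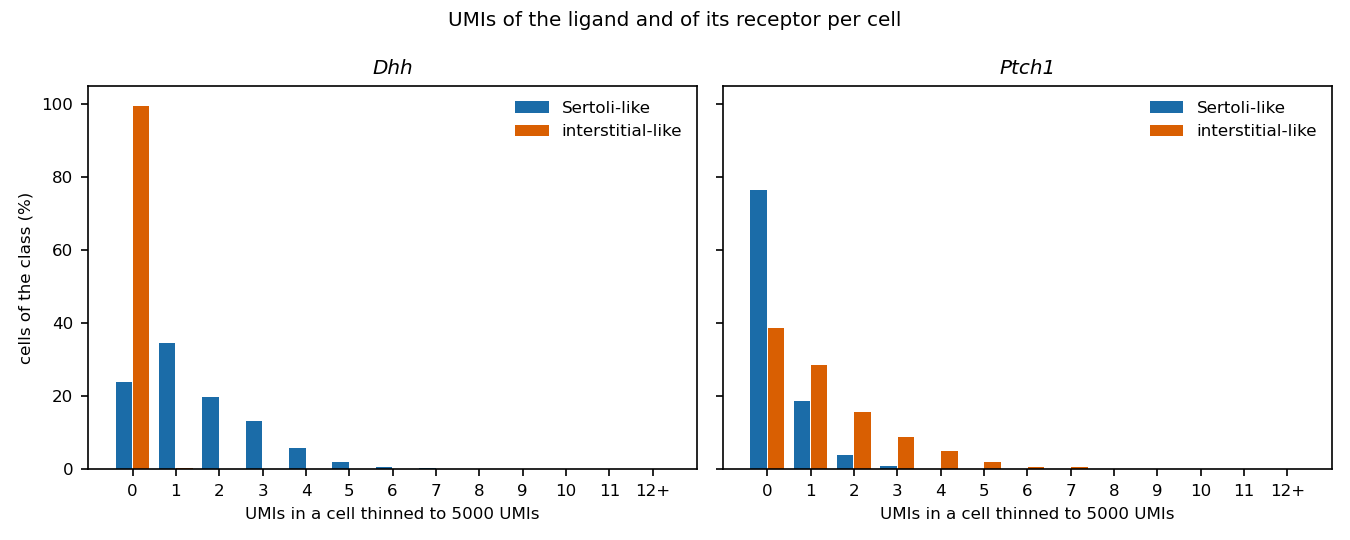
UMIs of *Dhh* (left) and *Ptch1* (right) per cell, after each cell was thinned to 5000 UMIs, as a percent of the 850 Sertoli-like (blue) and 1286 interstitial-like (orange) cells. *Dhh* was at 0 in 202 of the Sertoli-like cells and in 1279 of the interstitial-like cells, whereas *Ptch1* was at 0 in 650 and 496 of them.

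The other ligands of the family gave few UMIs, and those of *Shh* lay mainly in the *Clps* Leydig-like cluster. *Ihh*, encoding Indian hedgehog, gave 12 UMIs in 10 of the cells kept. *Shh*, encoding sonic hedgehog, gave 49 UMIs in 31 cells, all of them Leydig-like. The *Clps* Leydig-like cluster, the one with the highest steroidogenic markers, held 46 of these UMIs in 28 of its 127 cells, with at most 5 in a cell, which is 14.5 CPM (10.6 to 19.3). The *Nppc* Leydig-like cluster held 3 UMIs in 183 cells, or 1.19 CPM. No *Shh* UMI was seen in the 917 Sertoli-like, 1353 interstitial-like and 252 germ-like cells. The 28 cells with a *Shh* UMI were deeper than the other 99 of their cluster (median 31154 against 20366 UMIs). Intervals overlapped for *Cyp11a1*, the enzyme that opens steroid synthesis (11042 against 10881 CPM), *Insl3*, a Leydig cell hormone (673 against 677 CPM), and *Lhcgr* (385 against 336 CPM). They did not overlap for *Cyp17a1* (15680 against 15081 CPM), *Hsd3b1* (3385 against 3131 CPM), *Star* (2202 against 2031 CPM) and *Scarb1* (1543 against 1394 CPM). All of these were higher in the cells with a *Shh* UMI. *Mc2r*, the receptor for adrenocorticotropic hormone, was higher in them too (68.3 CPM, 52.3 to 87.8, against 36.8 CPM, 29.4 to 45.6). The part of depth in the detection of *Shh* was not tested.

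*Ptch1*, the receptor and a target of the pathway, was highest in the interstitial-like cells. They held 57.8% of its 5913 UMIs, at 255 CPM (247 to 264). The 3 interstitial-like clusters were the first in the order of levels, with 277 CPM in the *H2ac8* cluster (258 to 297), 257 CPM in the *Colec11* cluster (246 to 268) and 226 CPM in the *Ntng1* cluster (207 to 245). The intervals of the *H2ac8* and *Colec11* clusters overlapped. Those of the *Colec11* and *Ntng1* clusters only just failed to meet, at 245.6 and 245.4 CPM, with a ratio of 1.14 (1.03 to 1.25). In thinned interstitial-like cells the variance of *Ptch1* was 1.71 times the mean, a spread that intervals of counting error do not cover. The *Nppc* Leydig-like cluster (148 CPM, 133 to 164) and the unnamed cluster (143 CPM, 119 to 171) came next, with overlapping intervals.

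A second tier of classes had *Ptch1* at 47.2 to 79.6 CPM. It held the erythroid-like (79.6 CPM, 58.2 to 106), rete testis-like (63.8 CPM, 42.1 to 92.9), germ-like (62.9 CPM, 57.8 to 68.3) and perivascular-like cells (60.1 CPM, 47.3 to 75.4), the main Sertoli-like cluster (61.3 CPM, 57.1 to 65.8) and the peritubular myoid-like cells (47.2 CPM, 42.2 to 52.6). Neighbours within this tier did not separate, but some classes further apart in it did. The intervals of the erythroid-like cells, the germ-like cells and the main Sertoli-like cluster lay wholly above that of the peritubular myoid-like cells. Those of the rete testis-like and perivascular-like cells overlapped it. Coelomic epithelium-like cells (33.2 CPM, 26.8 to 40.6), the *Clps* Leydig-like cluster (25.5 CPM, 20.3 to 31.7), endothelial-like cells (21.1 CPM) and immune-like cells (9.44 CPM) closed the order, together with the shallow Sertoli-like cluster at 1 UMI.

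After thinning to 5000 UMIs, 61.4% of interstitial-like cells held a *Ptch1* UMI (58.7 to 64.1, 1286 cells, 67 left out), and 77.2% as read. The thinned share was 31.6% in Leydig-like cells (26.4 to 37.1; 58.1% as read), 23.5% in Sertoli-like cells (20.7 to 26.5; 47.3% as read) and 19.1% in peritubular myoid-like cells (15.7 to 22.7; 35.5% as read). In germ-like cells it was 26.2% (20.9 to 32.2), and 82.5% as read. The shares of Sertoli-like and peritubular myoid-like cells were no higher than this germ-like share, and that of interstitial-like cells was above it. The Leydig-like class was mixed: the thinned share was 44.5% in the *Nppc* cluster (37.2 to 52.0), above the germ-like share, and 12.8% in the *Clps* cluster (7.497 to 19.95), below it. Whether the germ-like share is a background for *Ptch1*, or the Sertoli-like and peritubular myoid-like shares are background, was not tested.

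The *Ptch1* UMIs of germ-like and Sertoli-like cells came with fewer UMIs of the other genes of interstitial-like cells. For every 100 *Ptch1* UMIs, interstitial-like cells held 19.7 of *Gli1* and 33.6 of *Hhip*, and erythroid-like cells, where the 8 interstitial-like markers summed to 1124 CPM, held 17.4 and 28.3. Germ-like cells held 6.46 of *Gli1* and 1.62 of *Hhip*, and Sertoli-like cells 1.27 and 0.508. The interstitial-like markers summed to 47.1 CPM in germ-like cells and to 46.3 CPM in the main Sertoli-like cluster, against 4295 CPM in the *Colec11* cluster. For every 100 UMIs of *Pdgfra*, one of these markers, *Ptch1* stood at 89.3 in interstitial-like and 21.1 in peritubular myoid-like cells. It stood at 1591 in germ-like and 2539 in Sertoli-like cells, from 35 and 31 *Pdgfra* UMIs. The part of RNA from other cells in these levels was not tested further.

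**Figure D2:**
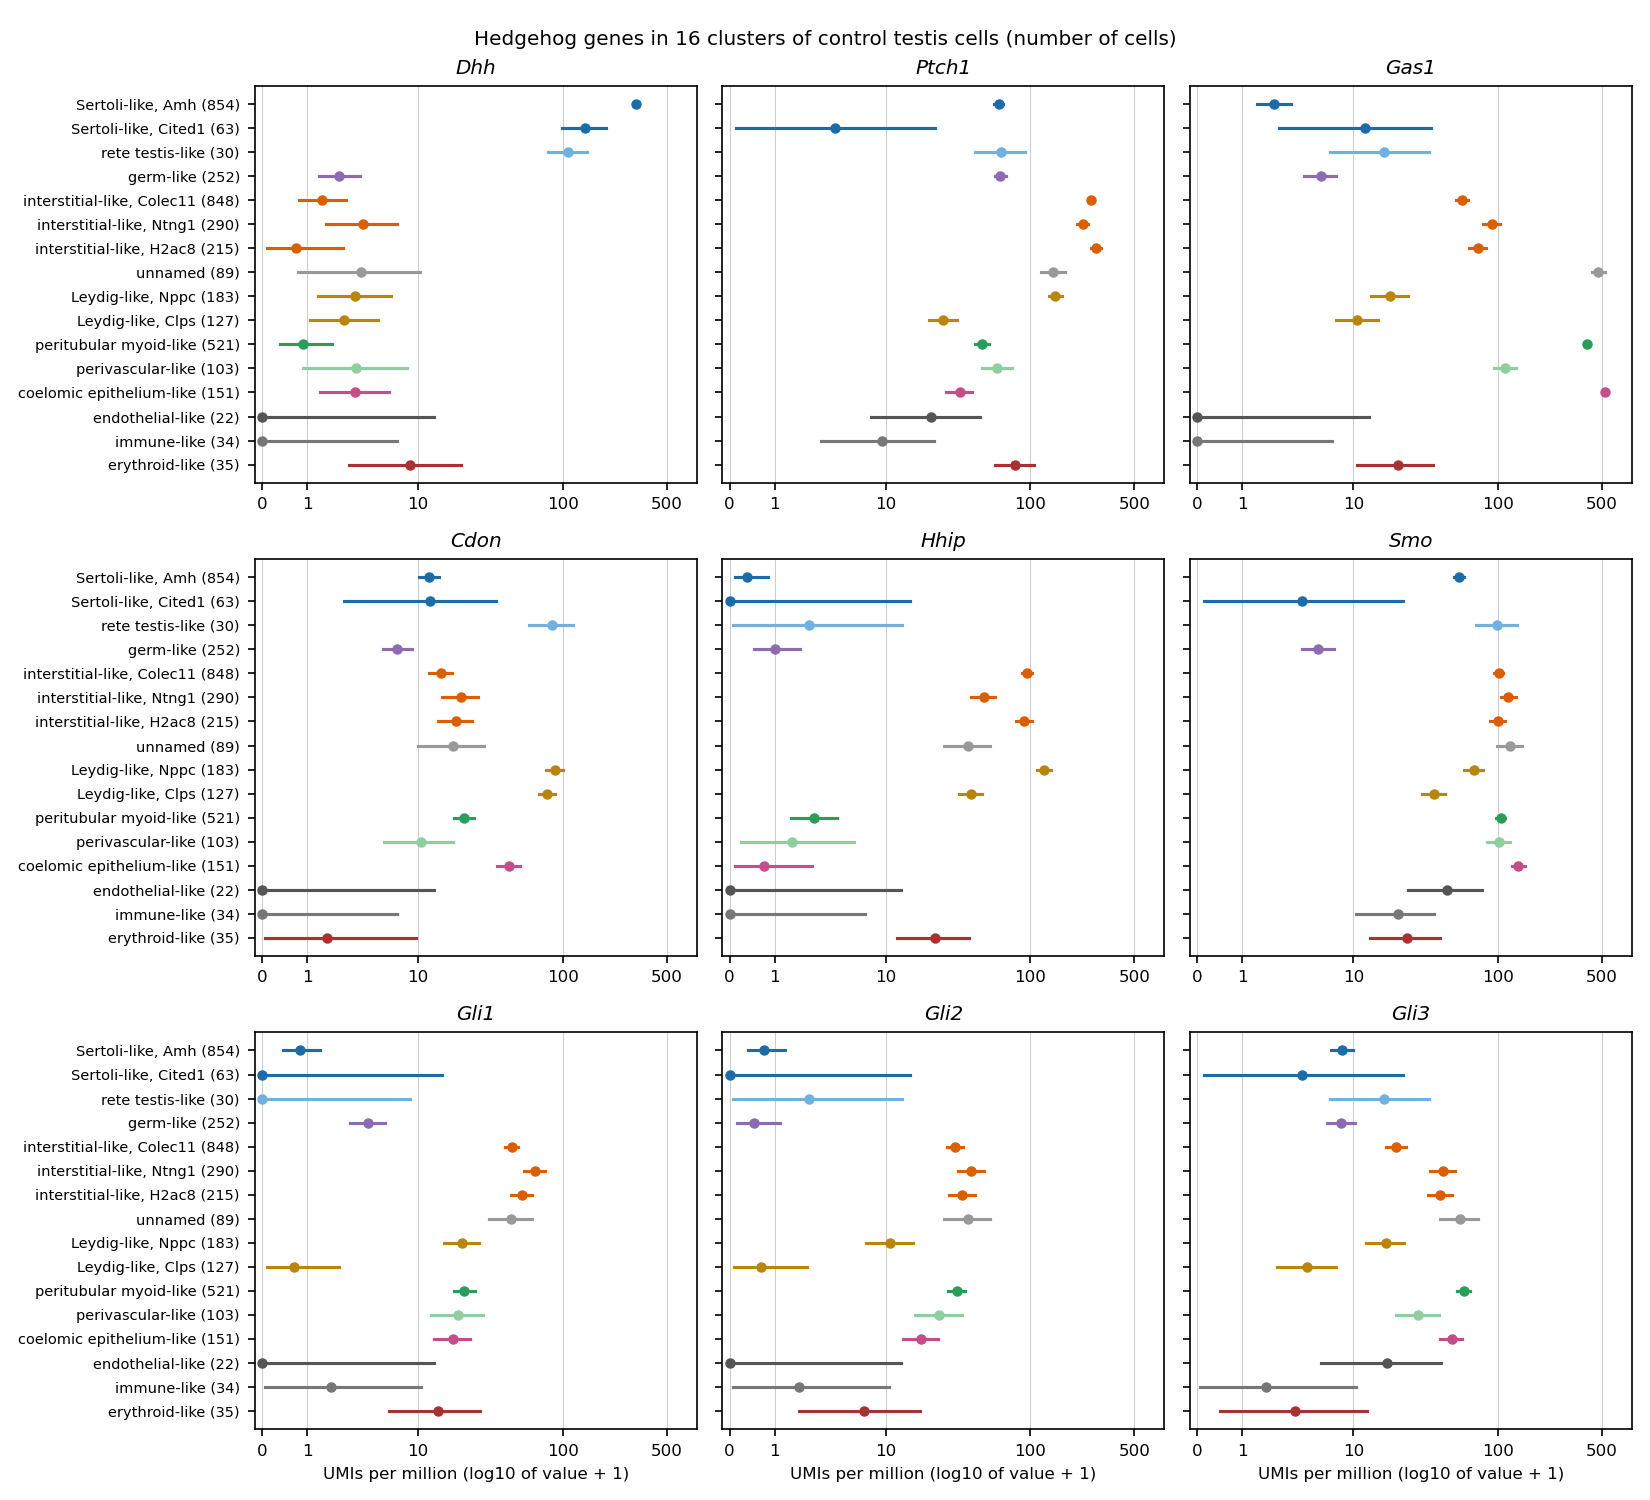
Level of each of the 9 Hedgehog genes in the 16 clusters (rows, number of cells in brackets), in CPM on an axis of log10(value + 1). Points are levels, lines exact 95% intervals of counting error, and colours the classes. *Dhh* stands apart in 3 rows (Sertoli-like and rete testis-like) and *Ptch1* peaks in the 3 interstitial-like rows. *Hhip* peaks in the *Nppc* Leydig-like row, followed by the *Colec11* and *H2ac8* interstitial-like rows.

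*Gli1*, a transcription factor whose own gene is a target, was also highest in interstitial-like cells. They held 64.8% of its 1042 UMIs, at 50.4 CPM (46.7 to 54.4). By cluster, *Gli1* was at 64.7 CPM in the *Ntng1* cluster (55.0 to 75.7), 52.8 CPM in the *H2ac8* cluster (44.8 to 61.9) and 45.2 CPM in the *Colec11* cluster (40.7 to 50.1), and the unnamed cluster stood beside them (45.0 CPM, 31.8 to 61.7). The *Ntng1* cluster was 1.43-fold above the *Colec11* cluster (1.18 to 1.73), the reverse of their order for *Ptch1*, where the difference was only 1.14-fold. Peritubular myoid-like (21.4 CPM, 18.1 to 25.2), *Nppc* Leydig-like (20.6 CPM, 15.4 to 27.1), perivascular-like (19.2 CPM, 12.3 to 28.6) and coelomic epithelium-like cells (17.6 CPM, 13.1 to 23.3) followed, with overlapping intervals. In Sertoli-like cells only 10 UMIs were counted (0.765 CPM, 0.367 to 1.41), 65.9-fold below interstitial-like cells (35.6 to 138). In the *Clps* Leydig-like cluster there were 2 UMIs in 127 cells.

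The thinned share of cells with a *Gli1* UMI was 21.9% in interstitial-like cells (19.6 to 24.2; 37.0% as read), 9.04% in peritubular myoid-like cells (6.69 to 11.9; 22.5% as read) and 0.471% in Sertoli-like cells (0.128 to 1.2; 1.09% as read), against 2.42% in germ-like cells (0.893 to 5.19; 11.9% as read). The share of Sertoli-like cells was not above that of germ-like cells, where the level was 4.06 CPM (2.85 to 5.63). Whether the Sertoli-like UMIs are background was not tested. Interstitial-like cells were shallower (median 9288 UMIs) than germ-like cells (36104 UMIs).

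*Hhip*, encoding a membrane protein that binds and traps the ligand, was held by interstitial-like and Leydig-like cells. Interstitial-like cells held 68.8% of its 1668 UMIs and Leydig-like cells 26.3%. The *Nppc* Leydig-like cluster had the highest level (124 CPM, 111 to 139), 1.31-fold above the *Colec11* interstitial-like cluster (1.14 to 1.49), which was at 95.2 CPM (88.6 to 102). The *H2ac8* cluster (90.9 CPM, 80.3 to 103) did not separate from the latter. Lower levels were found in the *Ntng1* cluster (48.3 CPM, 40.0 to 57.9), the *Clps* Leydig-like cluster (39.7 CPM, 33.1 to 47.3), the unnamed cluster (37.9 CPM, 25.9 to 53.4) and the erythroid-like cells (22.5 CPM, 12.0 to 38.5), and these neighbours did not separate.

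In every other class *Hhip* was at most 2.64 CPM, the level of the peritubular myoid-like cells (1.56 to 4.17, 18 UMIs in 521 cells). This was 32.5-fold below interstitial-like cells (20.5 to 55.1). Thinned shares were 34.5% in Leydig-like cells (29.2 to 40.1; 61.3% as read) and 29.2% in interstitial-like cells (26.7 to 31.7; 40.7% as read), and 0.403% in germ-like cells (0.0102 to 2.23; 2.78% as read). The share in peritubular myoid-like cells was 1.77% (0.812 to 3.33; 2.88% as read), and its interval overlapped that of germ-like cells.

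**Figure D3:**
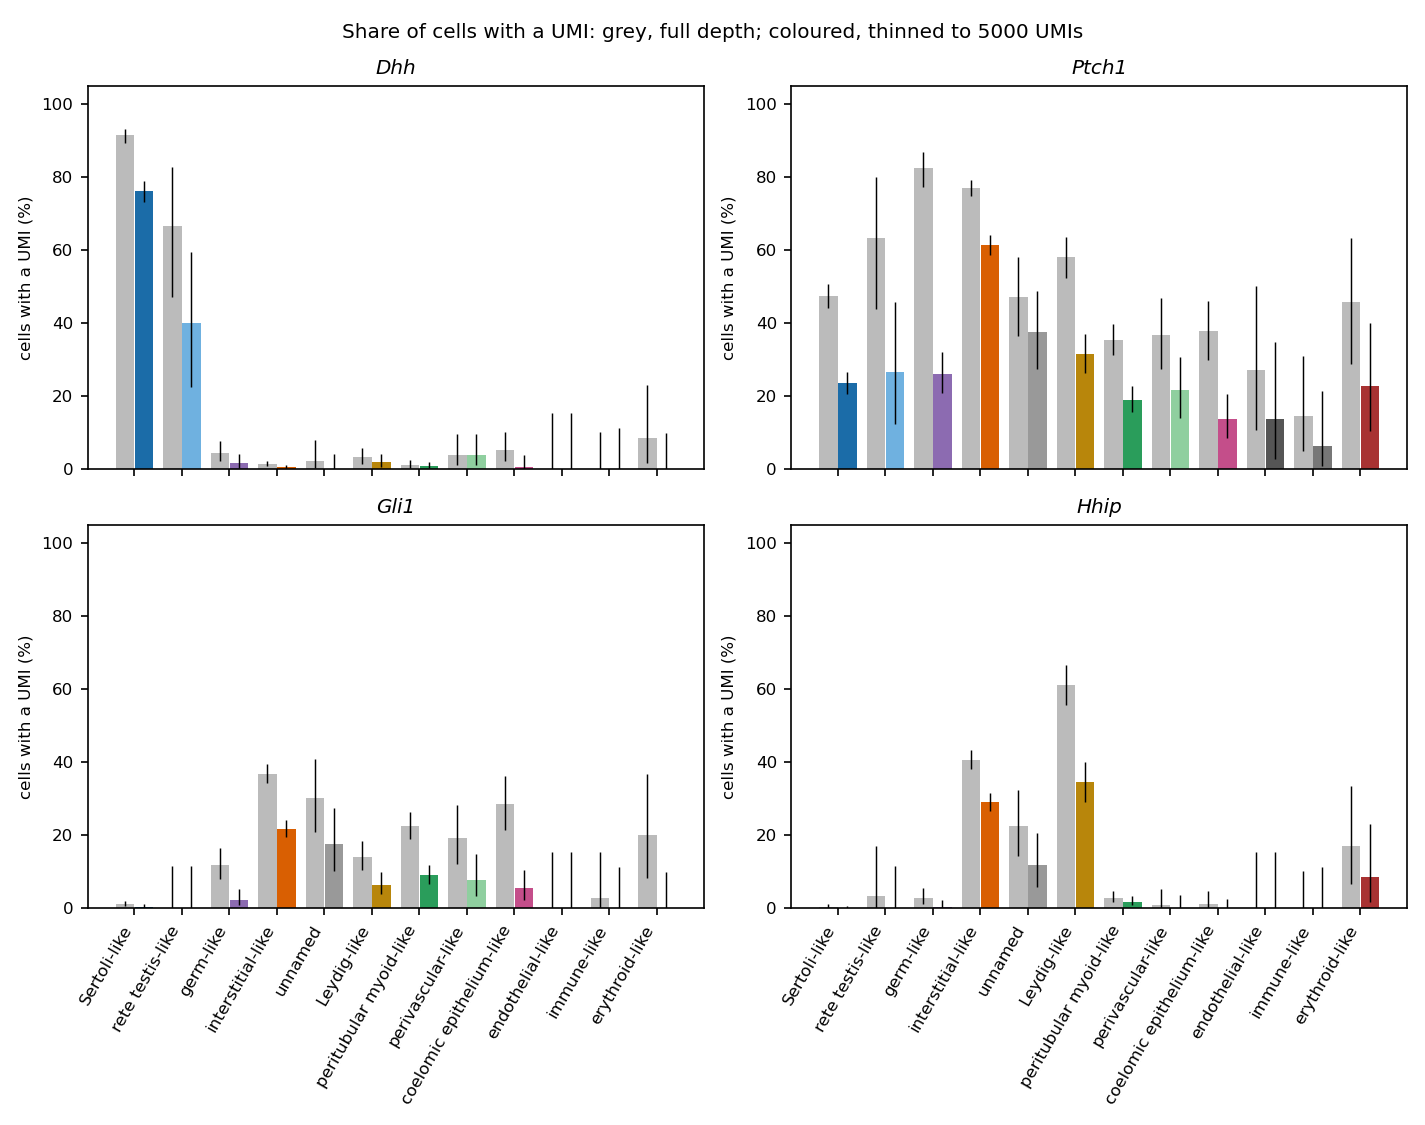
Percent of cells of each class with at least 1 UMI of *Dhh*, *Ptch1*, *Gli1* or *Hhip*. Grey bars are the cells as read, coloured bars the cells thinned to 5000 UMIs, and lines exact 95% intervals; for *Ptch1* the germ-like share drops from 82.5% to 26.2% on thinning, below the 61.4% of interstitial-like cells.

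Within a class, cells with and without a *Ptch1* UMI were compared for the other targets. Among thinned interstitial-like cells, 23.0% of the 790 cells with a *Ptch1* UMI also held *Gli1* (20.1 to 26.1), and 19.96% of the 496 cells without one (16.5 to 23.8), intervals that overlap. For *Hhip* the shares were 33.2% (29.9 to 36.6) and 22.8% (19.2 to 26.7), which did not overlap. In Sertoli-like cells, none of the 200 cells with a *Ptch1* UMI held *Gli1* or *Hhip* (up to 1.83% for each). Of the 650 without one, 4 held *Gli1* and 1 held *Hhip*, so both genes were too rare there to compare. A *Ptch1* UMI was found in 23.9% of the Sertoli-like cells with *Dhh* (20.7 to 27.4, 648 cells) and in 22.3% of those without (16.7 to 28.7, 202 cells). The cells of a class share 1 library, so these are counts within it and not replicates.

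*Gas1*, encoding a membrane-anchored co-receptor that helps PTCH1 take up the ligand, had another distribution. Its highest levels were in coelomic epithelium-like cells (525 CPM, 498 to 552), the unnamed cluster (472 CPM, 427 to 521) and peritubular myoid-like cells (396 CPM, 381 to 411). Perivascular-like cells followed at 112 CPM (94.4 to 133). The interstitial-like clusters had 91.4 CPM (*Ntng1*), 73.4 CPM (*H2ac8*) and 57.5 CPM (*Colec11*), and the *Nppc* Leydig-like cluster had 18.3 CPM (13.4 to 24.4). Peritubular myoid-like cells were 5.89-fold above interstitial-like cells (5.46 to 6.36), and 76.4% of them held a UMI after thinning (72.5 to 80.1; 91.9% as read) against 1.21% of germ-like cells (0.2502 to 3.49; 15.5% as read). In Sertoli-like cells *Gas1* was at 2.45 CPM (1.68 to 3.46).

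*Cdon*, encoding a further co-receptor of the immunoglobulin superfamily, was highest in Leydig-like and rete testis-like cells. It was at 88.5 CPM in the *Nppc* cluster (77.3 to 101) and 79.1 CPM in the *Clps* cluster (69.6 to 89.5), and at 85.1 CPM in the rete testis-like cells (59.6 to 118), with no separation between them. Coelomic epithelium-like cells came next (43.4 CPM, 36.1 to 51.8). Interstitial-like cells were at 16.4 CPM (14.3 to 18.8), 5.07-fold below Leydig-like cells (4.31 to 5.97). The level in germ-like cells was 6.998 CPM (5.37 to 8.97), below that in interstitial-like cells. The thinned share was 35.2% in Leydig-like cells (29.8 to 40.8; 68.1% as read), 7.85% in interstitial-like cells (6.44 to 9.46; 14.3% as read) and 5.24% in germ-like cells (2.82 to 8.80; 21.0% as read), and the last 2 intervals overlapped.

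*Smo* was found in all clusters. It ran from 99.3 to 137 CPM in interstitial-like, peritubular myoid-like, perivascular-like, rete testis-like, coelomic epithelium-like and unnamed clusters, where each neighbour in the order overlapped the next, although the coelomic epithelium-like cells were 1.36-fold above the *Colec11* cluster (1.198 to 1.53). It was at 69.1 CPM in the *Nppc* Leydig-like cluster (59.2 to 80.1), 54.8 CPM in the main Sertoli-like cluster (50.9 to 59.0), 36.9 CPM in the *Clps* Leydig-like cluster (30.5 to 44.2) and 5.42 CPM in germ-like cells (3.99 to 7.18). Thus germ-like cells, with *Ptch1* at 62.9 CPM, had the lowest *Smo* of all clusters but the shallow Sertoli-like one, which held 1 UMI.

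*Gli2* and *Gli3*, the factors that act before *Gli1*, differed from each other. *Gli2* was at 30.99 to 39.7 CPM in the interstitial-like clusters, 31.6 CPM in peritubular myoid-like cells (27.6 to 36.2) and 37.9 CPM in the unnamed cluster (25.9 to 53.4). The intervals of these clusters overlapped, while the ratio of the *Ntng1* to the *Colec11* cluster was 1.28 (1.003 to 1.63). *Gli3* was highest in peritubular myoid-like cells (59.0 CPM, 53.4 to 65.1), followed by the unnamed cluster (55.6 CPM) and coelomic epithelium-like cells (48.7 CPM, 40.9 to 57.5). Within the interstitial-like class, *Gli3* was at 42.6 CPM in the *Ntng1* cluster (34.8 to 51.6) and at 20.3 CPM in the *Colec11* cluster (17.3 to 23.7), a 2.10-fold difference (1.63 to 2.70). Sertoli-like cells had 9 UMIs of *Gli2* (0.689 CPM, 0.315 to 1.31) but 107 of *Gli3* (8.19 CPM, 6.71 to 9.89), beside a level in germ-like cells whose interval overlaps (8.13 CPM, 6.36 to 10.2).

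The pathway list was then compared between classes. A gene was called where the ratio of 2 levels, with 5 CPM added to each, was at least 2-fold, among genes with a mean level of at least 5 CPM. Between Sertoli-like and interstitial-like cells all 9 members passed the level filter. *Dhh* was the 1 member called higher in Sertoli-like cells, where 11.6% of the 10243 genes tested were called higher. In the other direction 6 members were called lower, *Ptch1*, *Gas1*, *Hhip*, *Gli1*, *Gli2* and *Gli3*, against a background of 10.5%. *Smo* was 1.93-fold lower (1.77 to 2.12) and *Cdon* 1.37-fold lower (1.11 to 1.69), short of the limit. The median log2 ratio over the members was -2.00, and 0.03 over all genes tested.

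Of the 33 further genes, 21 passed the filter in this comparison, 0 were called higher and 4 lower in Sertoli-like cells. Among these were *Boc*, a co-receptor related to *Cdon* (0.995 against 33.2 CPM), *Scube1*, of a family that helps release the ligand (15.6 against 48.2 CPM), and *Evc*, a ciliary partner of SMO (2.14 against 10.1 CPM). None of the genes of ciliary transport and assembly was called, and *Intu* among them was under the level filter. The background shares were 11.6% higher and 10.5% lower.

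Between Leydig-like and interstitial-like cells 8 members passed the filter, all but *Dhh*. *Cdon* was called higher in Leydig-like cells (background 7.77%), and *Ptch1*, *Gas1*, *Gli1*, *Gli2* and *Gli3* lower (background 10.8%). *Ptch1* was 3.20-fold lower (2.903 to 3.54) and *Gli1* 5.32-fold lower (4.03 to 7.15), whereas *Hhip* did not separate, at 77.1 CPM against 85.7 CPM, a ratio of 0.899 (0.804 to 1.01). For *Hhip* the Leydig-like class was mixed, with the *Nppc* cluster above the interstitial-like level (124 CPM) and the *Clps* cluster below it (39.7 CPM). The members' median log2 ratio was -1.40, and -0.15 over all genes tested. Of the 20 further genes that passed the filter, 2 were called lower, near the background share, and 0 higher. *Ift81*, a part of the ciliary transport complex, was among the former (10.4 against 35.1 CPM).

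Between peritubular myoid-like and interstitial-like cells fewer genes were called. *Gas1* was called higher (background 2.02%), and *Ptch1*, *Hhip* and *Gli1* lower (background 2.78%), among the 8 members that passed the filter. *Ptch1* was 5.41-fold lower (4.83 to 6.09) and *Gli1* 2.36-fold lower (1.97 to 2.84). *Smo* (ratio 1.004, 0.916 to 1.10) and *Gli2* (0.948, 0.802 to 1.12) did not separate, and *Gli3* was 2.05-fold higher (1.78 to 2.36) but short of the limit once 5 CPM were added. The members' median was -0.03, as was that of all genes tested. Of the 23 further genes that passed the filter, 1 was called lower and 1 higher, the latter *Scube3* (10.8 against 2.47 CPM). With each cell classed by its own markers in place of its cluster, none of the list genes was called, and the log2 ratio of levels was -0.97 for *Ptch1*, -0.97 for *Hhip*, -0.64 for *Gli1* and 0.98 for *Gas1*, in the same directions. So *Ptch1*, *Hhip* and *Gli1* were lower in peritubular myoid-like cells while the transducer, *Gli2* and *Gli3* were not.

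**Figure D4:**
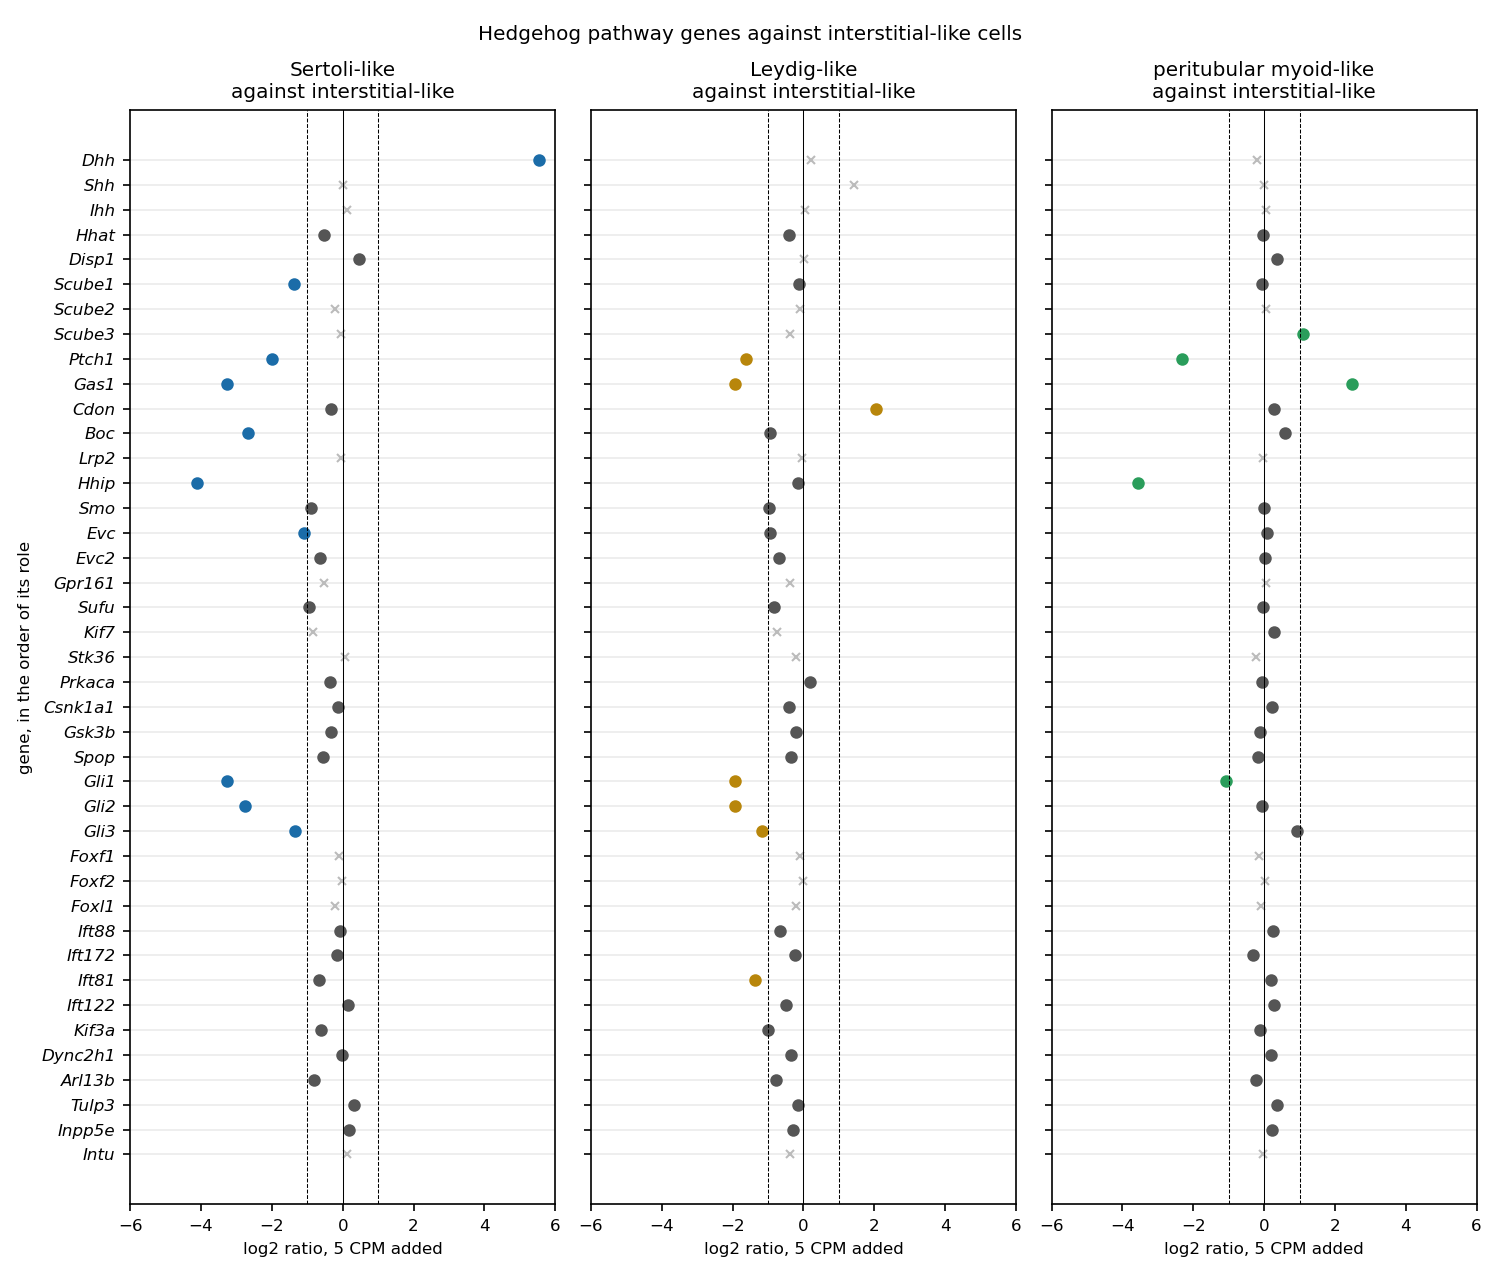
Log2 ratio of class levels, with 5 CPM added to each, for the pathway genes (rows, in the order of their roles) in Sertoli-like, Leydig-like and peritubular myoid-like cells against interstitial-like cells. Coloured points are past 2-fold (dashed lines), grey points are not, and crosses mark genes under the level filter; *Ptch1* and *Gli1* lie to the left of the dashed line in all 3 panels.

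The 2 Leydig-like clusters differed from each other, a comparison that was chosen after their levels had been seen. The 8 Leydig-like markers, steroid enzymes and hormone receptors among them, summed to 8680 CPM in the *Nppc* cluster and to 33965 CPM in the *Clps* cluster, and the interstitial-like markers to 1406 and 450 CPM. *Ptch1* was at 148 CPM in the *Nppc* cluster and 25.5 CPM in the *Clps* cluster, a 5.80-fold difference (4.55 to 7.47). *Hhip* was 3.13-fold lower in the *Clps* cluster (2.54 to 3.88), and *Gli1* fell from 52 UMIs to 2 (32.8-fold, 8.62 to 278). *Gli2* (17.0-fold, 4.27 to 148, from 27 UMIs to 2) and *Gli3* (3.87-fold, 2.08 to 7.66) were called lower too.

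In all, 5 of the 8 members that passed the filter were called lower in the *Clps* cluster, and 0 higher, where 9.72% and 4.79% of the 9506 genes tested were called. *Cdon* (ratio 0.893, 0.743 to 1.08) and *Gas1* (0.587, 0.365 to 0.934) were not. Of the 20 further genes that passed the filter, *Shh* was the 1 called higher. Another 2 were called lower, among them *Scube1* (21.1 against 73.0 CPM). Both counts were near the background shares. From the *Colec11* interstitial-like cluster over the *Nppc* to the *Clps* Leydig-like cluster, *Ptch1*, *Gli1*, *Gli2* and *Smo* stepped down at each change of cluster with intervals that did not overlap. *Smo* went from 101 to 69.1 and 36.9 CPM. *Gli3* did not separate at the first change (20.3 CPM, 17.3 to 23.7, and 17.1 CPM, 12.4 to 23.0). It stepped down at the second, to 4.41 CPM (2.41 to 7.40). *Gas1* stepped down at the first change, and its intervals overlapped at the second (ratio 1.70, 1.07 to 2.74), whereas *Hhip* was highest in the middle and *Cdon* was higher in both Leydig-like clusters, whose intervals overlapped.

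**Figure D5:**
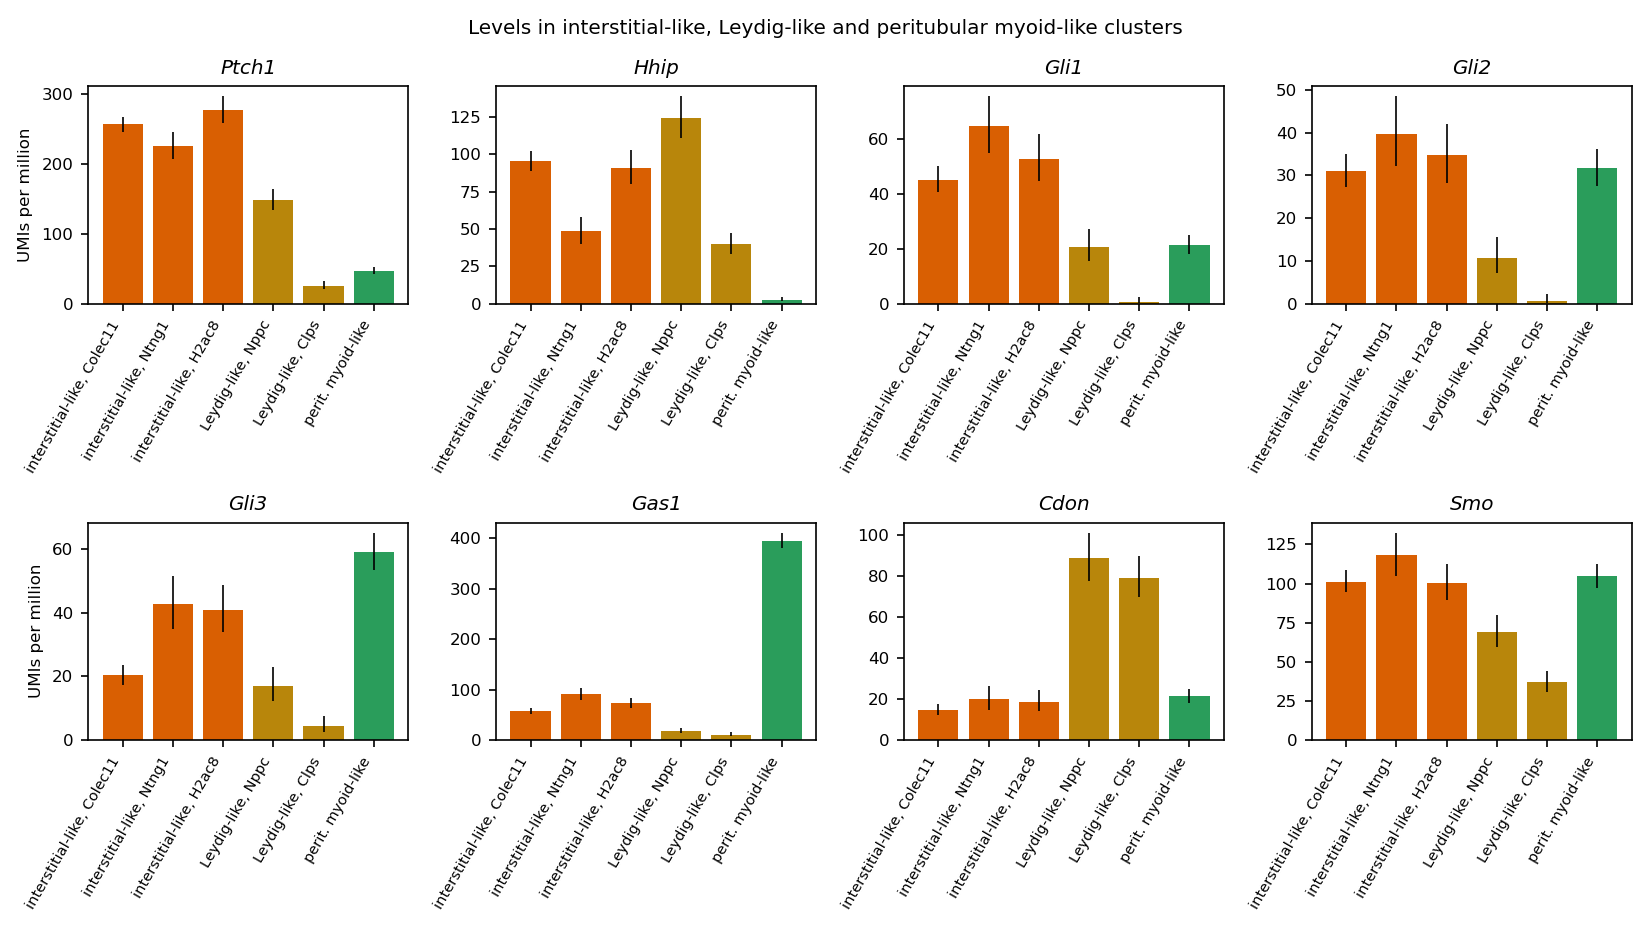
Levels (CPM, from 0) of 8 members in the 3 interstitial-like clusters (orange), the 2 Leydig-like clusters (ochre) and the peritubular myoid-like cluster (green), each named by its leading gene; lines are exact 95% intervals. *Ptch1* runs from 257 CPM in the *Colec11* cluster to 148 and 25.5 CPM in the Leydig-like clusters, and *Gas1* peaks in peritubular myoid-like cells at 396 CPM.

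The responding genes were also read by cell-cycle phase. In interstitial-like cells *Ptch1* was at 256 CPM in G1, 258 CPM in S and 250.4 CPM in G2/M, and *Gli1* at 48.4, 55.1 and 47.9 CPM, with overlapping intervals. *Gas1* was higher in G2/M (96.6 CPM, 86.6 to 108) than in G1 (59.1 CPM, 52.9 to 65.8) or S (53.9 CPM, 47.2 to 61.3). Peritubular myoid-like cells had the same order for *Gas1* and, for *Ptch1*, 61.3 CPM in G1 (52.3 to 71.4) against 33.5 CPM in G2/M (26.1 to 42.4), with *Gas1* at 513 CPM in G2/M (482 to 545), 378 CPM in G1 (356 to 402) and 302 CPM in S (279 to 326). *Gas1* is named for growth arrest in cultured cells.

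The genes whose levels ran most like those of 4 members over the 16 clusters were listed, by Pearson's r of log2(CPM + 5) among the 6364 genes that reached 50 CPM in a cluster. For *Dhh* they were *Gm14226* (0.988), *Shbg* (0.987) and *Mt3* (0.985), all highest in the main Sertoli-like cluster. For *Gli1* they were *Pdgfra*, a growth factor receptor of stromal cells (0.970), *Itih5* (0.965) and *Twist1* (0.962), and for *Hhip* they were *Wfdc1* (0.969), *Actr3b* (0.939) and *Gna14* (0.928). The closest to *Ptch1* were *Col13a1* (0.858), *Hsd11b2* (0.846) and *Adamts5* (0.828), all highest in the *Colec11* cluster. Of the members, *Gli2* was closest to *Gli1* (0.957), with *Ptch1* at 0.796 and *Dhh* at -0.499. The clusters come from 1 library and differ in depth, so these are descriptions. *Pdgfra* is itself an interstitial-like marker.

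Among the other targets and receptors of the list named here, levels were low except for *Boc*. *Boc* followed *Gas1* in part, with 60.3 CPM in coelomic epithelium-like cells (51.6 to 70.1), 52.9 CPM in peritubular myoid-like cells (47.6 to 58.6) and 33.2 CPM in interstitial-like cells. *Lrp2*, an endocytic co-receptor, gave 35 UMIs in 24 of 151 coelomic epithelium-like cells (12.4 CPM, 8.60 to 17.2) and was at 0 in Sertoli-like, Leydig-like and peritubular myoid-like cells. *Foxf1*, *Foxf2* and *Foxl1*, forkhead genes that respond to Hedgehog signals in gut and lung mesenchyme, were at 0.523, 0.0747 and 0.822 CPM in interstitial-like cells. *Foxf1* was at 9.82 CPM in germ-like cells (7.87 to 12.1), in 60 of 252 cells as read.

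In the 372 barcodes with fewer than 200 genes, which were left out, the members gave 8 UMIs in all.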

How the data were processed

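Testes of 12 controls had been pooled into 1 library (10x Genomics Chromium, 3′ v3). The authors aligned its reads with Cell Ranger to mm10 with a YFP sequence added. The deposited matrix holds their raw UMI counts for each gene in each barcode. The processing notes list versions 3.0.2 and 3.1.0, the matrix header 3.1.0, and the paper's methods another.

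Of 5421 barcodes, 372 with fewer than 200 genes were removed, then 204 predicted doublets (4.04%, from simulated pairs) and 1028 barcodes more than 3 deviations from the median in UMIs, genes, ribosomal share or (above only) mitochondrial share. The 3817 cells left held 2284 to 53635 UMIs. They were normalised with SCTransform (Seurat 5.3.0, R 4.3.3) on 3000 variable genes, with cell-cycle scores and the mitochondrial share regressed out. They were then clustered on 30 components at resolution 0.8. Pathway genes were left out of the components.

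A cluster took the name of the list with the highest mean log2 ratio of its markers to the other cells, if this was at least 0.5, at least 3 markers were in 25% of its cells, and its 10 leading genes held no more markers of another class than of its own. A cluster of very low depth also needed a marker of its own among them. This rule was set after the clusters had been seen. Members, lists and comparisons were chosen with earlier results of these data known.

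Levels are summed counts with exact Poisson intervals, and shares have exact Clopper-Pearson intervals. These cover counting error between molecules of 1 library and no further spread between cells. Thinned counts had a variance of 1.49 times the mean for *Hhip* in interstitial-like cells and 1.75 times for *Gas1* in peritubular myoid-like cells. The ratio call was tested on simulated data. The genes named were the 9 members, other list genes past 2-fold in a comparison or at 0 in a class, and the 3 genes most like *Dhh*, *Ptch1*, *Gli1* and *Hhip*. Some genes that this rule would name are not reported here, though the counts include them. The Leydig-like markers in cells with and without a *Shh* UMI, *Amh*, and *Boc* by class were added after their values had been seen. The same holds for the phase and co-detection values. Promoter sequences are those of RefSeq, and 33 of the 42 genes had one or more, in 37 windows. Alternatives were other filters, doublet rates, resolutions, normalisations and class assignments.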

Additional observations from a re-analysis of the deposited data

How the results depend on the processing

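Of 439 log2 ratios of member levels over 36 ratios and 16 other settings, 388 stayed within the counting interval of the value reported and 51 did not. A sign changed in 7 of them, over 4 ratios, and 6 of the 24 ratios of at least 2-fold were under 2-fold in at least 1 setting. The log2 ratio of *Dhh* between Sertoli-like and interstitial-like cells was 7.48, and 6.79 without doublet removal. Between Leydig-like and interstitial-like cells, *Ptch1* (-1.68) was at -1.95 with an outlier limit of 5 deviations, -2.02 with no outlier filter, -1.53 at resolution 1.2 and -1.94 without cell-cycle regression. *Hhip* (-0.15) was at -0.47, -0.55 and -0.38 under the first, second and last of these, at -0.36 with the doublet rate doubled and at 0.09 with each cell classed by itself. The pathway genes called higher there went from 1 to 2 with no level filter, which lets more genes be tested, and those called lower from 7 to 12 with 1 CPM added.

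Between peritubular myoid-like and interstitial-like cells, *Ptch1* (-2.44) was at -2.27 without doublet removal, -2.04 at resolution 1.2, -2.65 with log-normalization and -2.25 without cell-cycle regression. *Hhip* (-5.02) was at -4.25 with an outlier limit of 5 deviations and at resolution 0.4, -4.06 without doublet removal, -3.82 at resolution 1.2, and -4.14 both without cell-cycle regression and with the pathway genes kept for clustering. The genes called higher went from 2 to 1 without doublet removal, at resolution 1.2, with log-normalization and without cell-cycle regression. With each cell classed by itself, *Ptch1* and *Hhip* were at -0.97 and *Gli1* at -0.64 against -1.24, and the genes called went from 2 to 0 higher and from 4 to 0 lower. The causes were not tested. Of 114 counts of called genes under another setting, 8 moved by more than 1.5 times. No paired analysis was possible because there was 1 library, and no replicate could be left out. Levels of clusters of 22 to 35 cells are limited by depth.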
